A study of Helianthus annuus with 12 samples.

Results

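Gene expression in sunflower (Helianthus annuus) seeds of the cultivar 86-1 at 27 days after flowering (DAF) was set against that in seeds of the cultivar L-1-OL-1 at 17 DAF. This pairing puts the later stage of 86-1 beside the earlier stage of L-1-OL-1, because the LEA transcripts that mark late seed maturation lie nearer to each other in these groups than in seeds of the same nominal age. The series was made to compare high oleic with low oleic sunflowers during seed development, and its labels do not say which cultivar is which. Each group held 3 RNA sequencing libraries of whole seeds. The groups left for the crossed pairing, 86-1 at 17 DAF and L-1-OL-1 at 27 DAF, also held 3 libraries each. No treatment, mutation or transgene is recorded for any group. Oleic acid built up fast at 17 DAF and was near its plateau at 27 DAF, according to the labels, which give this without naming a cultivar. Nothing in the labels states whether replicates are different plants, so the p-values reflect no more than the scatter among the libraries sequenced.

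A gene entered the comparison if its FPKM, the deposited measure of level scaled by gene length and library size, was at least 1 in 3 or more of the 6 libraries. This held for 25888 of the 48882 genes in the table. Cultivar and nominal stage differ together between the groups, so within this comparison they cannot be told apart. The crossed comparison, 86-1 at 17 DAF minus L-1-OL-1 at 27 DAF, shares no library with it and has the nominal stages the other way round. It is called the second comparison here and tested 27476 genes, by the same filter applied to its own 6 libraries.

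A sunflower seed fills with oil and protein before it dries. Stearoyl-ACP desaturase makes oleic acid in the plastid, and the delta-12 (omega-6) oleate desaturase FAD2 of the endoplasmic reticulum turns oleic into linoleic acid, so the seed form of that enzyme governs how much oleic acid stays in sunflower oil. Oil is packed in oil bodies coated by oleosins, and protein is stored as 11S globulins and 2S albumins. Late embryogenesis abundant (LEA) proteins and small heat shock proteins gather as the embryo prepares to dry, while histones and ribosomal proteins mark dividing and growing tissue.

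Maturity was nearer in the pairing but not equal. LEA and desiccation transcripts took 2.21, 2.47 and 4.11% of the FPKM total in the 86-1 libraries at 27 DAF, against 0.424, 1.29 and 3.98% for L-1-OL-1 at 17 DAF. The groups overlapped only through replicate 3 of L-1-OL-1. In the crossed groups the same list took 0.224 to 0.457% in 86-1 at 17 DAF, against 5.18 to 7.43% of the total in L-1-OL-1 at 27 DAF. Storage protein transcripts took 34.5, 25.1 and 10.3% in 86-1 at 27 DAF, against 31.7, 18.4 and 0.796% of the total in L-1-OL-1 at 17 DAF, so the groups overlapped. Among the L-1-OL-1 libraries at 17 DAF, replicate 1 had the lowest LEA and the highest storage share, and replicate 3 had the reverse. The same order by replicate number held in 86-1 at 27 DAF.

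**Figure D1:**
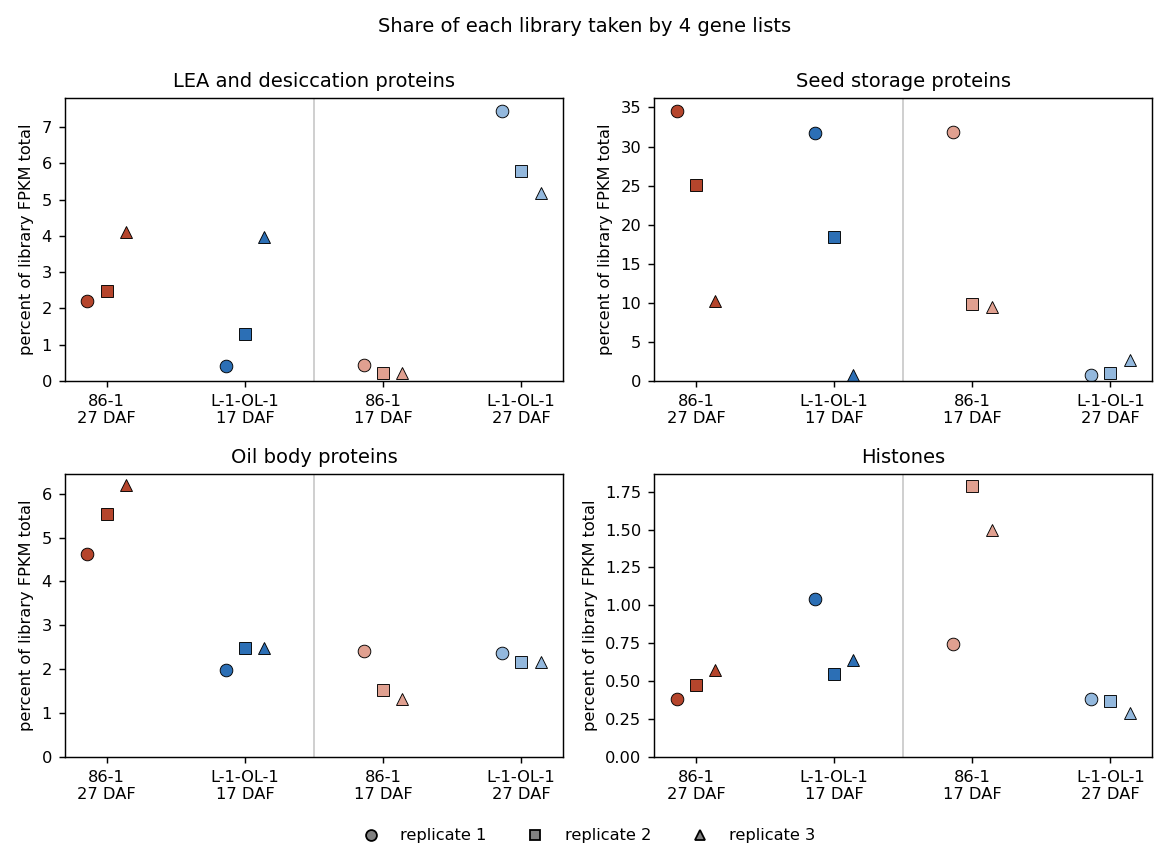
Percent of each library's FPKM total taken by 4 gene lists, with 1 point per library, replicate number by symbol and the groups of the main pairing left of the grey line. LEA shares of 86-1 at 27 DAF (2.21 to 4.11%) lie above 2 of the 3 L-1-OL-1 libraries at 17 DAF, and oil body shares of 86-1 at 27 DAF (4.63 to 6.2%) lie above all 3.

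L-1-OL-1 replicate 1 at 17 DAF stood apart in other ways. Across genes, its log2 values correlated at 0.848 and 0.762 with its own group's other libraries, which correlated at 0.937 with each other, while the 86-1 libraries at 27 DAF correlated at 0.942 to 0.966. Correlations between the groups lay between 0.697 and 0.763. Histones took 1.04% and cytosolic ribosomal proteins 4.57% of this library, against 0.547 to 0.638% and 1.98 to 2.28% in the other libraries of its group. Its label as L-1-OL-1 could be checked with 353 genes that had at least 5 FPKM in every L-1-OL-1 library at 27 DAF and were at 0 throughout 86-1 at 27 DAF. In replicates 1, 2 and 3 of 86-1 at 17 DAF, 21, 21 and 329 of these genes were above 0, against 347, 352 and 352 in the L-1-OL-1 replicates at 17 DAF. Of 179 genes chosen the same way for 86-1, with L-1-OL-1 at 27 DAF at 0, 175, 154 and 160 reached 1 FPKM in 86-1 replicates 1, 2 and 3 at 17 DAF, against 81, 73 and 65 in the L-1-OL-1 replicates at 17 DAF. Replicate 3 of 86-1 at 17 DAF therefore held low levels of genes seen otherwise in L-1-OL-1, with a median of 3.58% of the L-1-OL-1 level at 27 DAF, and the counts of the second comparison are given with and without it. FPKM totals of the 6 libraries lay between 636057 and 683903, with 22510 to 26047 genes at 1 FPKM or more and relative depths of 0.914 to 1.39. The depths are rough estimates from ratios of low FPKM values to those of 86-1 replicate 1 at 27 DAF. In the other libraries only 11.6 to 14.6% of these ratios lay in the peak that set the depth. Read counts are not known from FPKM. The labels give no batch.

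Between 86-1 at 27 DAF and L-1-OL-1 at 17 DAF, 3970 genes passed an adjusted p of 0.05, which is 15.3% of those tested. They are termed called genes here. Higher in 86-1 at 27 DAF were 1573 genes (6.08%) and lower were 2397 (9.26%). All differences are log2(FPKM + 1) in 86-1 minus L-1-OL-1 with the standard error from limma, and they understate the change of low genes. The median difference over all tested genes was -0.23. Median-of-ratios scaling moved this median to -0.03 and quantile normalization to 0.03, and the share of calls that were higher in 86-1 at 27 DAF, 39.6% as deposited, became 48.2% (2423 higher, 2606 lower) and 50.9% (2609 higher, 2521 lower). When L-1-OL-1 replicate 1 was left out, 6633 genes were called.

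Much of this count came from genes that were expressed on only 1 side. Of the 3970 calls, 2608 (65.7%) had no library at 1 FPKM or more in the other group, so that the rule by which they were chosen already required a difference. They were 1111 of the 1178 such genes of 86-1 at 27 DAF and 1497 of the 1595 of L-1-OL-1 at 17 DAF. Any called gene named below with all values under 1 FPKM in 1 group of the main pairing is of this kind. For such a gene the adjusted p of the first comparison is no separate support for a difference. The same holds in the second comparison for a gene with all values under 1 FPKM in 1 of its groups. Among the 23115 genes that reached 1 FPKM in libraries of both groups, 1362 were called (5.89%), of which 462 were higher and 900 lower in 86-1 at 27 DAF. Gene models with newGene in their identifier were called at 39.1% (1700 of 4350), and the other genes at 10.5% (2270 of 21538).

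**Figure D2:**
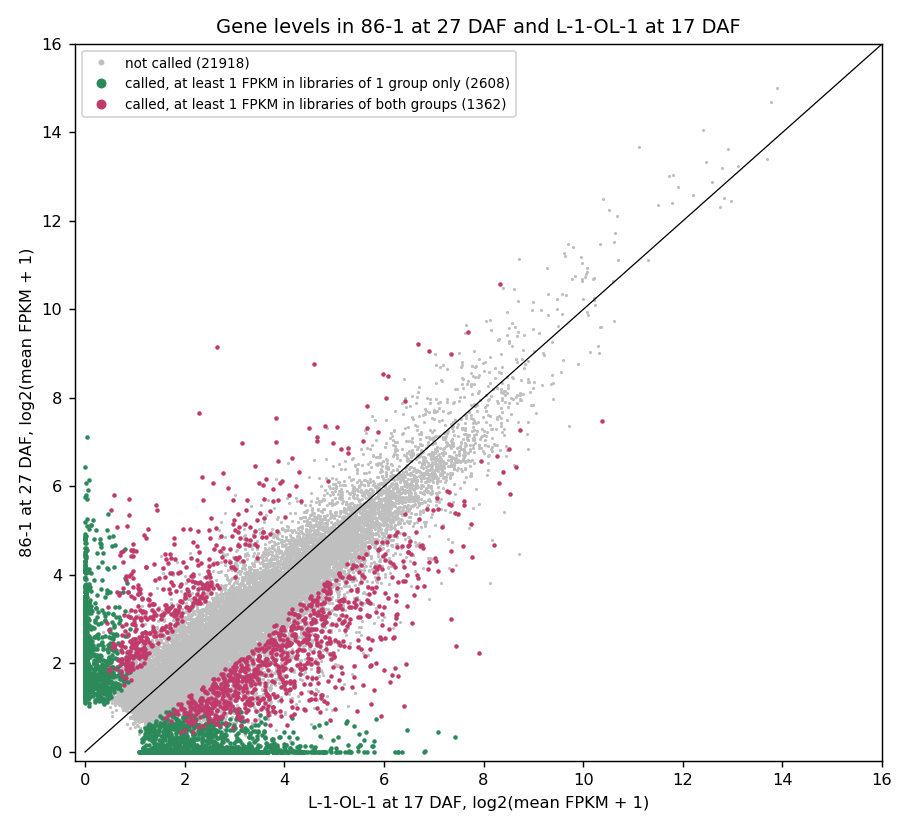
Mean level of each of the 25888 tested genes, that of 86-1 at 27 DAF (vertical) and of L-1-OL-1 at 17 DAF (horizontal), as log2(mean FPKM + 1), with a line of equality. The 2608 called genes in green lie along the axes because they reached 1 FPKM in libraries of only 1 group, and the 1362 in pink reached it in both.

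An oleate desaturase gene differed between the groups. Whether it is the seed form of the enzyme was not tested. The oleate desaturase gene64287, described as a delta-12 enzyme, had 568, 554 and 176 FPKM in 86-1 at 27 DAF, against 49.3, 18 and 2.55 FPKM in L-1-OL-1 at 17 DAF. Its lowest 86-1 library was thus above the highest L-1-OL-1 library, a log2 difference of 4.67 ± 0.94 (adjusted p = 0.0117). The call was lost without 86-1 replicate 1 (adjusted p = 0.083) and kept without any other single library, with adjusted p between 0.000817 and 0.0439. In the crossed groups gene64287 had 905, 698 and 481 FPKM in 86-1 at 17 DAF, against 0.0902, 0.0735 and 0 FPKM in L-1-OL-1 at 27 DAF, a log2 difference of 9.32. It was therefore higher in 86-1 whichever cultivar was nominally older.

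The remaining desaturases did not separate the groups in this test. Of the other 3 tested omega-6 genes, gene1458 had 3.72, 4.11 and 10.3 FPKM in 86-1 at 27 DAF, against 5.5, 43.5 and 87 FPKM in L-1-OL-1 at 17 DAF (log2 difference -2.18 ± 0.90, adjusted p = 0.176). Without L-1-OL-1 replicate 1 it passed the threshold, lower in 86-1 at 27 DAF, with an adjusted p of 0.0011. For gene55389 and gene44739 the log2 differences were -0.31 ± 0.29 and -0.34 ± 0.34. Stearoyl-ACP desaturase gene3372, which feeds the pathway with oleic acid, had 320, 352 and 84.7 FPKM in 86-1 at 27 DAF, against 950, 168 and 32.4 FPKM in L-1-OL-1 at 17 DAF, ranges that overlap almost fully (log2 difference 0.28 ± 1.16, adjusted p = 0.904). In the second comparison the same gene differed by 7.60 on the log2 scale, with 1513, 1137 and 923 FPKM in 86-1 at 17 DAF, against 3.67, 7.14 and 4.68 FPKM in L-1-OL-1 at 27 DAF. A further stearoyl-ACP desaturase, gene48724, showed the same pattern, with log2 differences of -0.18 ± 0.50 in the first comparison and 3.35 in the second. None of the 4 tested omega-3 desaturases, which make linolenic acid, was called. The nearest was gene30216, with 1.04, 1.56 and 2.29 FPKM in 86-1 at 27 DAF, against 0.795, 0.235 and 0.263 FPKM in L-1-OL-1 at 17 DAF (log2 difference 0.87 ± 0.25, adjusted p = 0.0519). Without L-1-OL-1 replicate 1 its adjusted p was 0.0099, and without 86-1 replicate 1 it was 0.0475.

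**Figure D3:**
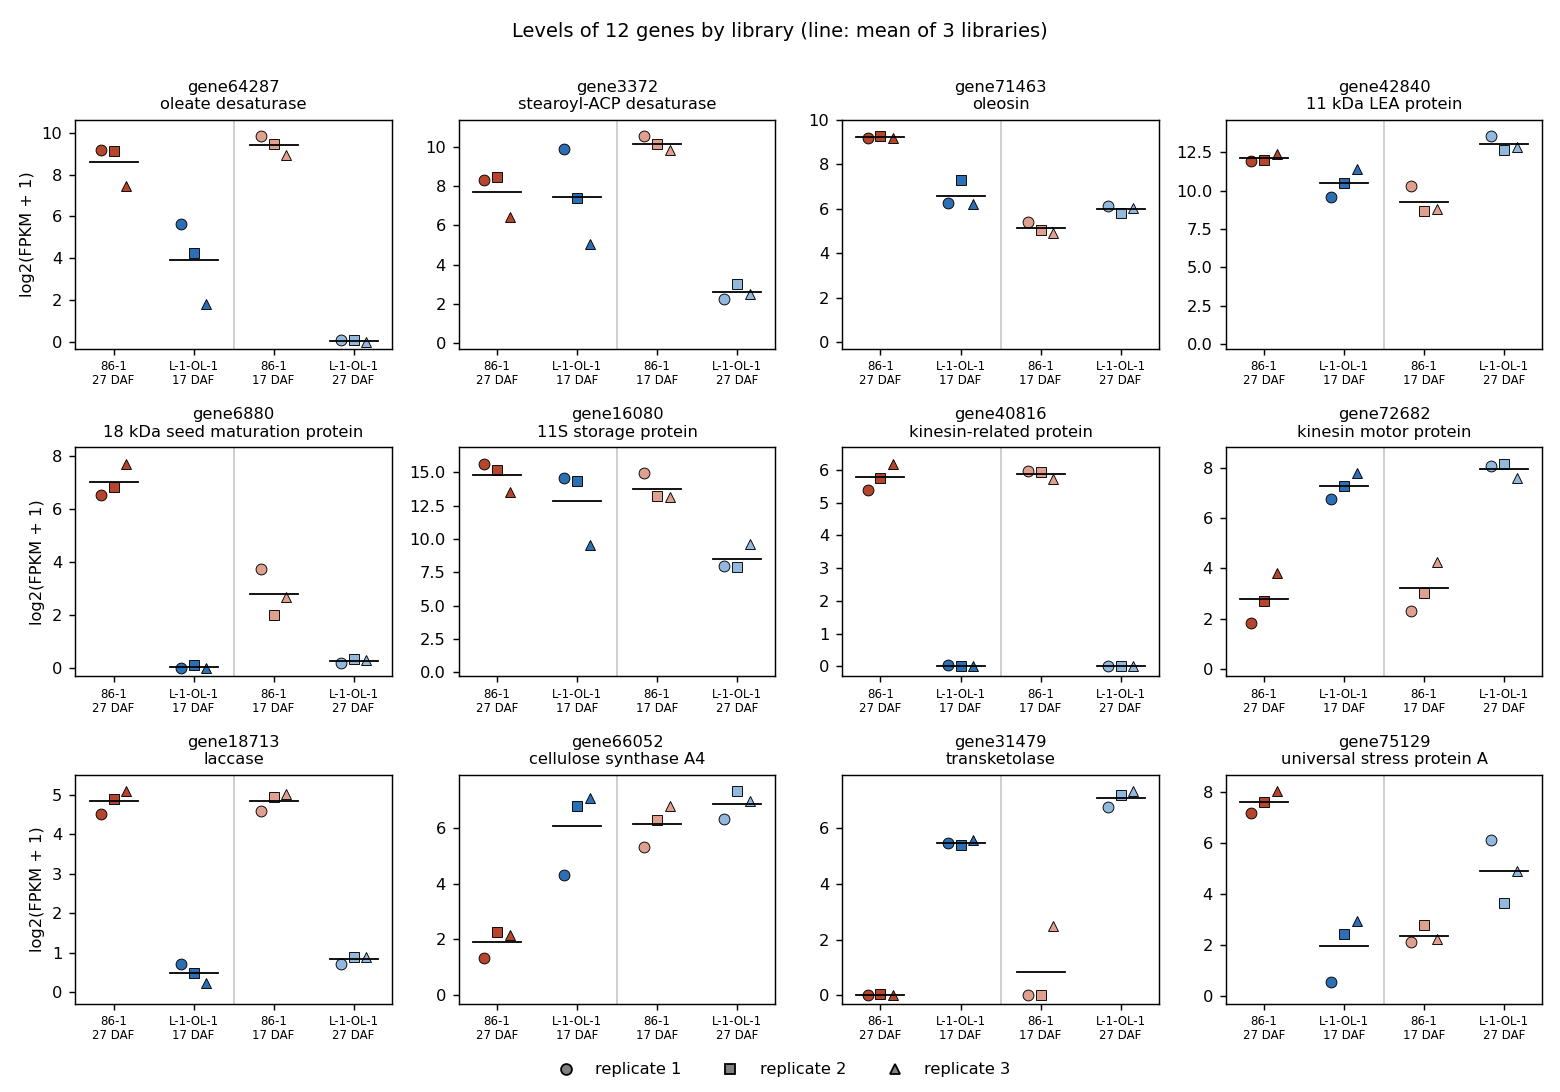
Levels of 12 genes as log2(FPKM + 1) in all 12 libraries, with replicate number by symbol, the mean of 3 libraries as a line and the groups of the main pairing left of the grey line. The oleate desaturase gene64287 is high in both 86-1 groups, the stearoyl-ACP desaturase gene3372 overlaps between 86-1 at 27 DAF and L-1-OL-1 at 17 DAF, and kinesin gene40816 and transketolase gene31479 follow the cultivar.

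Genes of fatty acid synthesis in the plastid were called at 11.1%, against 15.3% of all genes. Of 27 tested genes of that list, out of 35, none was higher and 3 were lower in 86-1 at 27 DAF (all genes: 6.08% higher and 9.26% lower). All 3 were under 1 FPKM in every library of 86-1 at 27 DAF, so their difference was set by the filter. With a filter at a mean of 5 FPKM, 0 of 22 tested genes of the list were called. The list's median log2 difference was -0.43, against -0.23 over all genes, and it was 0.05 when L-1-OL-1 replicate 1 was left out and -0.73 when L-1-OL-1 replicate 3 was. In the crossed groups 17 of 26 were higher and 2 lower in 86-1 at 17 DAF (all genes: 34.6% higher and 32% lower), with a median log2 difference of 2.73. Leaving out 86-1 replicate 3 at 17 DAF gave 16 higher and 2 lower. The ketoacyl-ACP synthase model Helianthus_annuus_newGene_24716, an enzyme that lengthens the growing acyl chain, had 0.0635, 0.0483 and 0 FPKM in 86-1 at 27 DAF, against 7.61, 9.33 and 11.6 FPKM in L-1-OL-1 at 17 DAF. It fell by 3.32 on the log2 scale (SE 0.24, adjusted p = 0.00017) and was also lower in 86-1 in the second comparison, by a log2 difference of -3.92. Among 15 tested thioesterases, which end chain growth, and acyl-CoA synthetases, which prepare the free acids for lipid assembly, 3 were higher and 1 was lower in 86-1 at 27 DAF. The acyl-CoA synthetases gene1412 and gene28825 averaged 8.32 and 6.85 FPKM in 86-1 at 27 DAF, against 0.069 and 0.0127 FPKM in L-1-OL-1 at 17 DAF. Both of these, and the thioesterase model Helianthus_annuus_newGene_4417, with means of 6.05 FPKM in 86-1 at 27 DAF and 0.104 FPKM in L-1-OL-1 at 17 DAF, were called in the same direction in the second comparison. These 3 higher calls entered the first comparison only through 86-1, so their difference there was set by the filter. With a filter at a mean of 5 FPKM, 0 of 9 tested genes were higher and 1 was lower. The lower call, thioesterase model Helianthus_annuus_newGene_37039, was lost without any 1 of the 86-1 libraries or L-1-OL-1 replicate 2 or 3. Triacylglycerol assembly had 1 higher and 1 lower call among 27 tested genes, with 6 lower when L-1-OL-1 replicate 1 was left out. Its lower call, the lysophosphatidic acid acyltransferase model Helianthus_annuus_newGene_13398, was listed at 0 in all 3 libraries of 86-1 at 27 DAF, against 3.77, 5.5 and 6.3 FPKM in L-1-OL-1 at 17 DAF.

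Oil body proteins stood higher in 86-1 at 27 DAF. Their transcripts took 4.63, 5.54 and 6.2% of the FPKM total there, against 1.99, 2.48 and 2.48% of the total in L-1-OL-1 at 17 DAF, with no overlap. In 8 of 17 tested genes, out of 20, every 86-1 library lay above every L-1-OL-1 library and in 0 the reverse held, where 10.5% of all tested genes did so upward and 20.8% downward. The median log2 difference was 1.41, and 0.86 to 1.66 under the other scalings. Only 3 of the 17 passed the test, all higher, and 2 did without any 1 of the 86-1 libraries or L-1-OL-1 replicate 2. Leaving out L-1-OL-1 replicate 1 or 3 gave 4 and 5. In the crossed groups 8 of 18 were higher and 8 lower in 86-1 at 17 DAF (all genes: 34.6% higher and 32% lower), with a median log2 difference of 0.12. Without 86-1 replicate 3 at 17 DAF the counts were 8 and 7. Oleosin gene71463 had 588, 617 and 588 FPKM in 86-1 at 27 DAF, against 76.1, 157 and 73.5 FPKM in L-1-OL-1 at 17 DAF. It differed by 2.63 ± 0.43 on the log2 scale (adjusted p = 0.00405) and passed without any single library. In the second comparison its log2 difference was -0.87, lower in 86-1 at 17 DAF. Oleosin gene22011 averaged 242 FPKM in 86-1 at 27 DAF, against 84.4 FPKM in L-1-OL-1 at 17 DAF (log2 difference 1.58 ± 0.41, adjusted p = 0.0378). This call did not outlast removal of any 86-1 library or of L-1-OL-1 replicate 2, with adjusted p between 0.0798 and 0.163. The log2 difference of gene22011 in the second comparison was -1.68. The third call, oil body-associated protein model Helianthus_annuus_newGene_23526, had 9.41, 15.2 and 12.9 FPKM in 86-1 at 27 DAF and was listed at 0 in all 3 libraries of L-1-OL-1 at 17 DAF. The most abundant oleosins carried more error: gene67185 averaged 8481 FPKM in 86-1 at 27 DAF, against 3562 FPKM in L-1-OL-1 at 17 DAF, a log2 difference of 1.43 ± 0.99 (adjusted p = 0.419).

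Storage proteins gave no call in either direction among 27 tested genes, out of 31, where 15.3% of all genes were called. Only 1 of the 27 did not overlap between the groups, against 31.2% of all genes. With the LEA level as a covariate, a fit that called 11144 genes in all, 20 were higher and 2 lower in 86-1 at 27 DAF. The 11S globulin gene16080 had 50145, 36494 and 11936 FPKM in 86-1 at 27 DAF, against 23857, 20784 and 739 FPKM in L-1-OL-1 at 17 DAF (log2 difference 1.96 ± 1.76, adjusted p = 0.537). The 2S albumin gene47181 had 22720, 12746 and 2561 FPKM in 86-1 at 27 DAF, against 14901, 8236 and 19.5 FPKM in L-1-OL-1 at 17 DAF. In both genes replicate 3 was the lowest library of its group. The list's median log2 difference was positive with all libraries and -0.25 without L-1-OL-1 replicate 3. In the crossed groups 22 of 25 storage genes were higher in 86-1 at 17 DAF (34.6% of all genes were), or 19 without 86-1 replicate 3 at 17 DAF, and the albumin gene47905 had a log2 difference of 10.83.

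LEA transcripts, by which the pairing was chosen, still leaned to 86-1 at 27 DAF. Their median log2 difference was 1.14 (0.41 on leaving out L-1-OL-1 replicate 1), with 2 of 30 tested genes, out of 40, higher and 0 lower, a higher share near the 6.08% of all genes. Leaving out L-1-OL-1 replicate 3 gave 7 higher, and leaving out L-1-OL-1 replicate 2 or any 86-1 library gave 1. The 11 kDa LEA protein gene42840 had 3825, 4051 and 5384 FPKM in 86-1 at 27 DAF, against 751, 1471 and 2666 FPKM in L-1-OL-1 at 17 DAF, and did not pass (log2 difference 1.61 ± 0.79, adjusted p = 0.254). The dehydrin gene68155 had 1077, 1300 and 2666 FPKM in 86-1 at 27 DAF, against 177, 673 and 2703 FPKM in L-1-OL-1 at 17 DAF. In gene68155 replicate 3 of L-1-OL-1 reached the level of 86-1 replicate 3, while the others lay below every 86-1 library. A gene apart from this pattern was the 18 kDa seed maturation protein gene6880, at 91.6, 112 and 208 FPKM in 86-1 at 27 DAF, against 0, 0.0978 and 0 FPKM in L-1-OL-1 at 17 DAF (log2 difference 6.98 ± 0.36, adjusted p = 0.000155). It was also higher in 86-1 in the second comparison, by a log2 difference of 2.52, where 25 of 30 LEA genes were lower in 86-1 at 17 DAF (32% of all genes were), also without 86-1 replicate 3 at 17 DAF. The second call, gene38996, averaged 358 FPKM in 86-1 at 27 DAF, against 66.3 FPKM in L-1-OL-1 at 17 DAF (adjusted p = 0.0306), and was lost without any 1 of the 86-1 libraries or L-1-OL-1 replicate 2 (adjusted p between 0.068 and 0.108).

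Small heat shock proteins, chaperones of the drying seed, had 6 higher and 2 lower calls among 48 tested genes, against 6.08% higher and 9.26% lower over all genes. Their median log2 difference of 0.50 became 0.11 without L-1-OL-1 replicate 1, and the higher calls numbered 2 without 86-1 replicate 3, 3 without 86-1 replicate 1 or 2 and 13 with a replicate block. Class I protein gene1573 averaged 15.4 FPKM in 86-1 at 27 DAF, against 2.35 FPKM in L-1-OL-1 at 17 DAF (log2 difference 2.34 ± 0.35, adjusted p = 0.00236). The HSP20-like gene58081 went the other way, with 0, 0.109 and 0.125 FPKM in 86-1 at 27 DAF, against 20.3, 21.4 and 29.3 FPKM in L-1-OL-1 at 17 DAF (log2 difference -4.50 ± 0.27). The direction of gene58081 recurred in the second comparison, while that of gene1573 did so with a log2 difference of 0.91 (adjusted p = 0.0423) that did not pass without 86-1 replicate 3 at 17 DAF (adjusted p = 0.0745). In that comparison 28 of 48 members were lower and 5 higher in 86-1 at 17 DAF, against 32% and 34.6% of all genes, and the counts were 27 and 3 without that library. Of the DnaJ, HSP70, HSP90 and chaperonin proteins, 6 of 230 were higher and 19 lower in 86-1 at 27 DAF, below the 9.26% of all genes that were lower, and 36 were lower when L-1-OL-1 replicate 1 was left out. The HSP90 gene65505 had 9.31, 9.39 and 16.7 FPKM in 86-1 at 27 DAF, against 36.2, 41.4 and 50.7 FPKM in L-1-OL-1 at 17 DAF (log2 difference -1.81 ± 0.33, adjusted p = 0.00658). No gene of the 22 tested seed maturation regulators was called.

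Histones, which rise with DNA synthesis, had 0 higher and 7 lower calls among 107 tested genes in 86-1 at 27 DAF, a share of calls below that of all genes. Their median log2 difference was -0.78; leaving out L-1-OL-1 replicate 1 gave -0.33 and 15 lower calls, and leaving out L-1-OL-1 replicate 3 gave 17. Without 86-1 replicate 1, 86-1 replicate 2 or L-1-OL-1 replicate 2 the lower calls numbered 2, 4 and 4. The H2B gene32220 had 0.537, 0.754 and 1.02 FPKM in 86-1 at 27 DAF, against 95.8, 43.5 and 41.8 FPKM in L-1-OL-1 at 17 DAF (log2 difference -5.02 ± 0.38, adjusted p = 0.000172). In the crossed groups 89 of 111 histone genes were higher in 86-1 at 17 DAF (34.6% of all genes were), or 83 without 86-1 replicate 3 at 17 DAF. Histone and ribosomal genes have near-identical copies that can share reads, and nothing used here tells how such reads were divided. Cytosolic ribosomal proteins had 3 higher and 4 lower calls among 176 tested, 3.98% called against 15.3% of all genes. On leaving out 86-1 replicate 1 or 2, 0 lower calls remained, while omitting any other single library gave 2 to 7. A filter at a mean of 5 FPKM gave 2 higher and 0 lower calls among 169. The list's median log2 difference was -0.69. Without L-1-OL-1 replicate 1, the library with the highest ribosomal share, this median was -0.32, against -0.35 over all genes. In 54 of the 176 every 86-1 library lay below every L-1-OL-1 library, against 20.8% of all genes. The ribosomal protein L3 gene46722 went against this median, with 70.1, 78.1 and 88.3 FPKM in 86-1 at 27 DAF, against 22.7, 15.1 and 17.8 FPKM in L-1-OL-1 at 17 DAF (log2 difference 2.04 ± 0.29, adjusted p = 0.00188), and differed in the same direction in the second comparison.

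Cell cycle genes had calls in both directions. Among 128 tested cyclins, kinesins and replication genes, 7 were higher and 12 lower in 86-1 at 27 DAF, close to the shares of all genes. Of the 18 calls tested in both comparisons 15 had the same sign, with or without 86-1 replicate 3 at 17 DAF, against 71.7% of all such calls. The phragmoplast kinesin gene40816, a motor of the dividing cell's new wall, had 41, 52.7 and 72.3 FPKM in 86-1 at 27 DAF, against 0.0375, 0 and 0 FPKM in L-1-OL-1 at 17 DAF. In 86-1 at 17 DAF it had 61.1, 60.9 and 52.1 FPKM, against 0 in all 3 libraries of L-1-OL-1 at 27 DAF. Kinesin gene72682 was its mirror image, at 2.55, 5.43 and 12.9 FPKM in 86-1 at 27 DAF, against 108, 153 and 223 FPKM in L-1-OL-1 at 17 DAF (log2 difference -4.51 ± 0.53, adjusted p = 0.000706). The crossed groups gave gene72682 a log2 difference of -4.75.

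**Figure D4:**
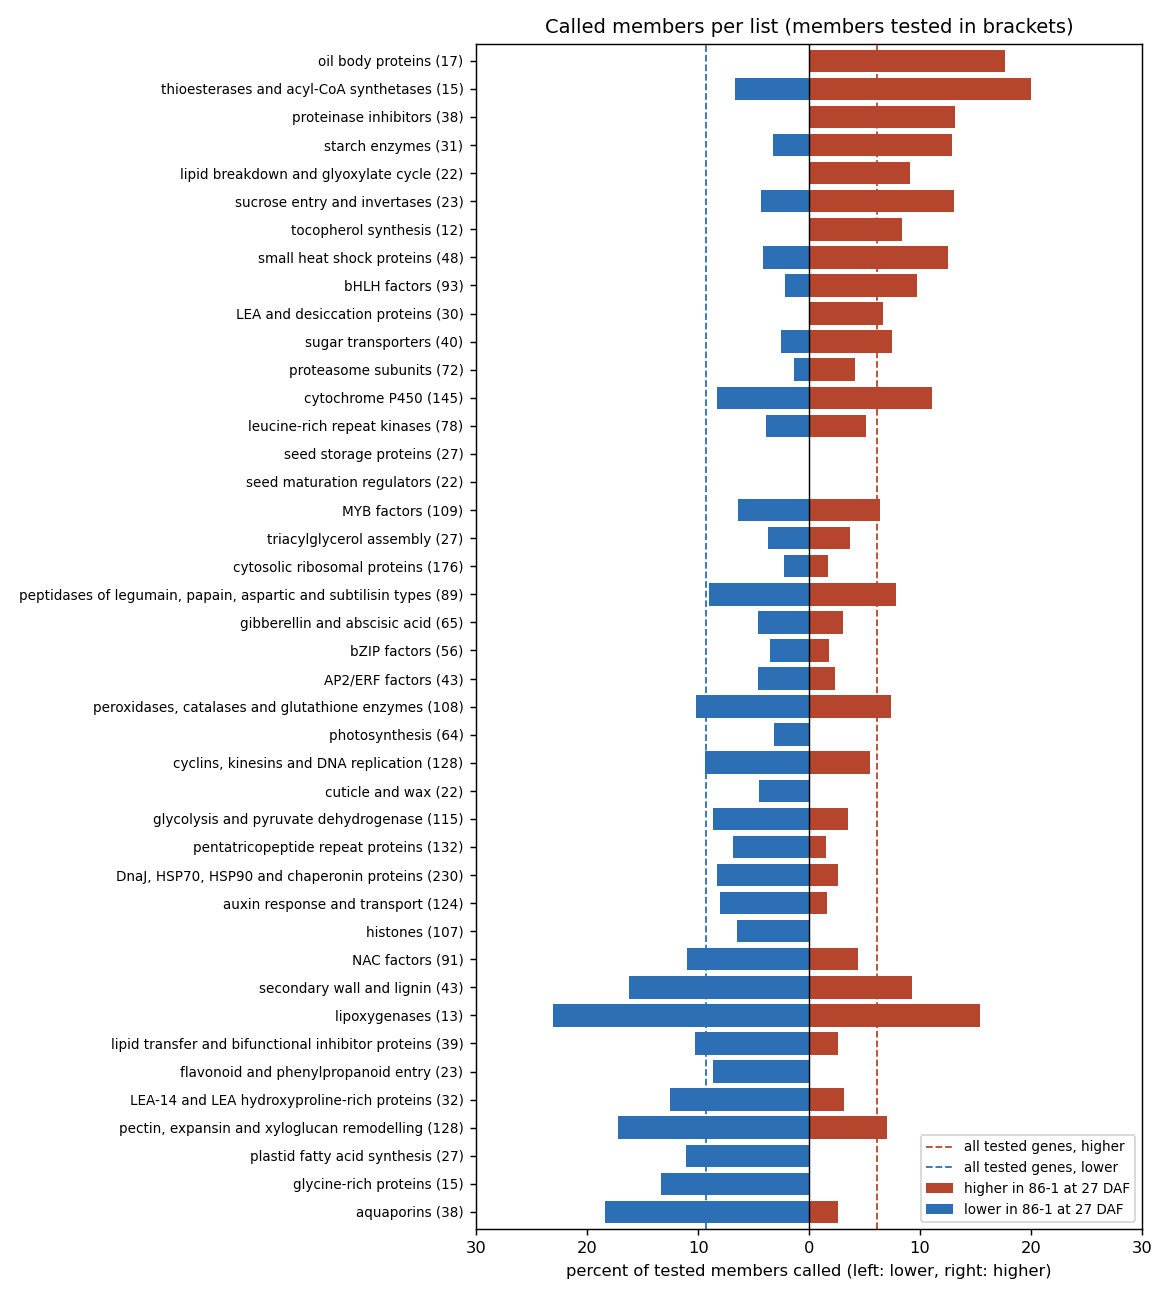
Percent of the tested members of each list called higher (red, right) or lower (blue, left) in 86-1 at 27 DAF than in L-1-OL-1 at 17 DAF, for lists with at least 10 tested members. Dashed lines mark all tested genes, 6.08% higher and 9.26% lower, and oil body proteins have 17.6% higher and none lower.

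Markers of tissue other than the embryo moved with the groups in part. The secondary wall and lignin list, which marks the hull, took 0.0679 to 0.103% of the FPKM total in 86-1 at 27 DAF, against 0.0805 to 0.188% of the total in L-1-OL-1 at 17 DAF. Of its 43 tested genes 4 were higher and 7 lower (6.08% and 9.26% of all genes), with a median log2 difference of -0.47. Without L-1-OL-1 replicate 1 the counts were 6 and 14. Cellulose synthase gene66052, described as the A4 subunit, which in Arabidopsis builds secondary walls, had 1.5, 3.86 and 3.46 FPKM in 86-1 at 27 DAF, against 18.9, 108 and 131 FPKM in L-1-OL-1 at 17 DAF (log2 difference -4.12 ± 0.71, adjusted p = 0.00505). This gene did not pass in the second comparison, with a log2 difference of -0.74 and an adjusted p of 0.142. A laccase, gene18713, of the family that polymerises lignin, had 21.9, 28.8 and 33.2 FPKM in 86-1 at 27 DAF, against 0.629, 0.396 and 0.17 FPKM in L-1-OL-1 at 17 DAF (log2 difference 4.37 ± 0.29, adjusted p = 0.000167). It was as high in 86-1 at 17 DAF, with 23.1, 29.8 and 31.5 FPKM, against 0.636, 0.846 and 0.863 FPKM in L-1-OL-1 at 27 DAF. Another laccase, gene31341, went the other way, with 1.49, 1.23 and 1.59 FPKM in 86-1 at 27 DAF, against 5.89, 10.5 and 18.3 FPKM in L-1-OL-1 at 17 DAF. Its log2 difference was -2.24 ± 0.40 (limma adjusted p = 0.006), and it did not pass in the second comparison (log2 difference 0.16, adjusted p = 0.49). Cuticle and wax genes had 1 lower call among 22 tested, 5 without L-1-OL-1 replicate 1 and 0 without any other library. In whole seeds, fewer cells of a tissue and less RNA per cell cannot be told apart, and the part of such tissue in the other results was not tested.

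Enzymes that loosen and rebuild the primary wall were lower more often than higher. Of 128 tested pectin, expansin and xyloglucan genes 22 were lower (17.2% in the plot of calls per list, against 9.26% of all genes) and 9 higher in 86-1 at 27 DAF, and leaving out L-1-OL-1 replicate 1 gave 42 and 14. Without 86-1 replicate 1, 86-1 replicate 2 or L-1-OL-1 replicate 2 the lower calls numbered 12, 13 and 14, nearer to the share of all genes. Xyloglucan endotransglucosylase gene19431 had 1.75, 0.209 and 0.732 FPKM in 86-1 at 27 DAF, against 39.2, 66.2 and 23.6 FPKM in L-1-OL-1 at 17 DAF (log2 difference -4.50 ± 0.46, adjusted p = 0.000396). Its relatives gene47226 and gene47228 were listed at 0 in all 3 libraries of 86-1 at 27 DAF, against 8.39 to 21 FPKM and 10.3 to 28.8 FPKM in L-1-OL-1 at 17 DAF. These relatives may share reads. Photosynthesis genes, which mark green tissue, had 0 higher and 2 lower calls among 64 tested in 86-1 at 27 DAF, and 34 lower calls without L-1-OL-1 replicate 1. Their summed share was 0.0345 to 0.0833% in 86-1 at 27 DAF, against 0.0235, 0.175 and 0.194% in L-1-OL-1 replicates 1, 2 and 3 at 17 DAF.

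Lists of carbon supply genes were called at 10 to 17.4%, against 15.3% of all genes. With a filter at a mean of 5 FPKM, sucrose entry genes with invertases and starch enzymes had 0 calls. Sucrose entry genes and invertases had 3 higher and 1 lower call among 23 tested, 17.4% called against 15.3% of all genes. The sucrose synthase gene50241, which splits incoming sucrose, averaged 89.1 FPKM in 86-1 at 27 DAF and 168 FPKM in L-1-OL-1 at 17 DAF without passing (adjusted p = 0.123). Sugar transporters had 3 higher and 1 lower call among 40 tested (10% called), and 6 higher and 5 lower without L-1-OL-1 replicate 1. SWEET carriers, which pass sugars across membranes, were among the 3 higher calls. SWEET gene11916 had 14.4, 23.4 and 25.8 FPKM in 86-1 at 27 DAF, against 3.58, 1.85 and 0.752 FPKM in L-1-OL-1 at 17 DAF (log2 difference 2.93 ± 0.42, adjusted p = 0.00191). SWEET gene58934 had 11.3, 7.72 and 11.2 FPKM in 86-1 at 27 DAF, against 1.5, 1.35 and 0.745 FPKM in L-1-OL-1 at 17 DAF (log2 difference 2.33 ± 0.29). Starch enzymes had 4 higher and 1 lower call among 31 (16.1% called), and 5 lower without L-1-OL-1 replicate 1. The beta-amylase models Helianthus_annuus_newGene_31426 and Helianthus_annuus_newGene_31427, which may share reads, were listed at 0 in all L-1-OL-1 libraries and had 3.21 to 5.08 FPKM in 86-1 at 27 DAF. Glycolysis and pyruvate dehydrogenase had 4 higher and 10 lower calls among 115 tested (12.2% called). The lower calls numbered 21 without L-1-OL-1 replicate 1, 5 without 86-1 replicate 1 and 6 without 86-1 replicate 2 or L-1-OL-1 replicate 2.

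Calls repeated with the same sign in both comparisons are those seen whichever cultivar was nominally older. Of the 24480 genes tested in both, 2455 (10%) were called with the same sign, 1071 higher (4.38%) and 1384 lower (5.65%) in 86-1. They made up 71.7% of the 3425 calls of the first comparison tested in both and 15.6% of the 15731 of the second, in which 66.6% of all tested genes were called. Calls of the first comparison that failed the filter of the second are outside these shares. A gene under 1 FPKM in every library of 1 cultivar had its sign set by the filter in both comparisons. For such a gene the repeat is no separate support, so the 71.7% was in part set by the filters. Opposite signs were found for 467 genes (1.91% of those tested in both), 13.6% of the first list, and 379 of these were lower in 86-1 at 27 DAF and then higher in 86-1 at 17 DAF. Without 86-1 replicate 3 at 17 DAF the second comparison had 16836 calls in place of 18291, and again 2455 genes had the same sign, of which 2418 were shared. The calls of the second comparison given for single genes, other than gene1573, also passed without that library. Among genes at 1 FPKM or more in libraries of both groups, the shares were 40.6% with the same sign (526 of 1297) and 29.8% with opposite signs (387), or 39.9% and 27.2% without that library. These are not far from the 34.6% of all genes called higher and 32% called lower in the second comparison. Only 526 of the 2455 same-sign genes reached 1 FPKM in libraries of both groups. In 1456 genes (5.62%) all 6 libraries of 86-1 lay above all 6 of L-1-OL-1, and in 1625 (6.28%) all lay below.

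**Figure D5:**
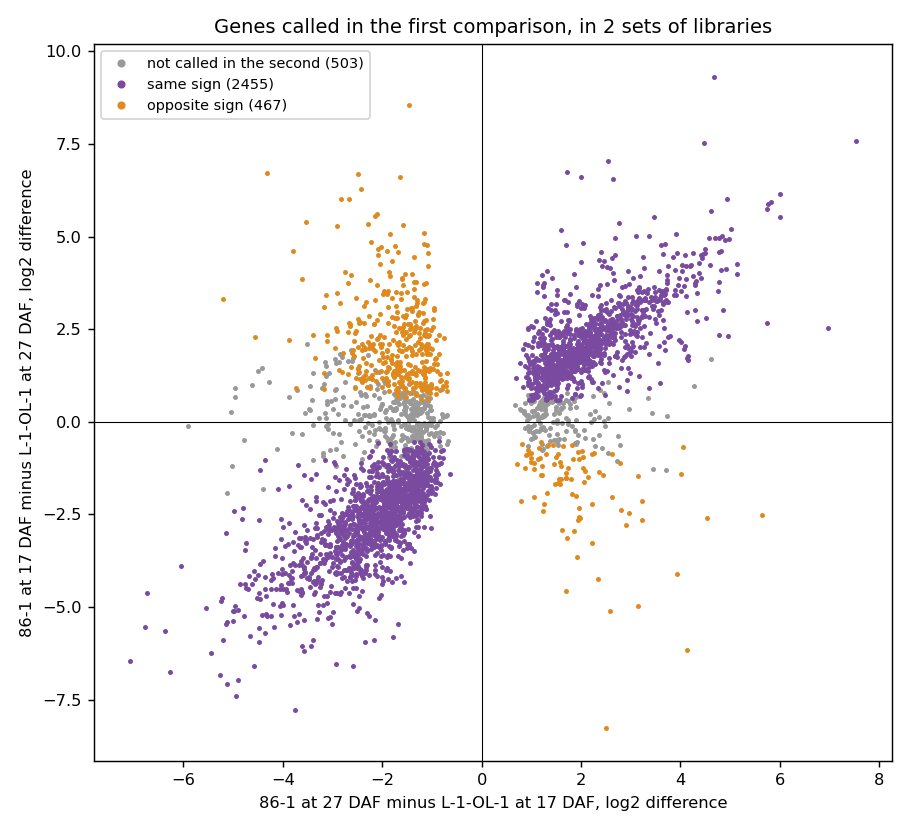
Log2 difference in the first comparison (horizontal) and in the second (vertical) for the genes called in the first and tested in both, with no library in common. Same-sign calls (2455, purple) fill the lower left and upper right, and opposite calls (467, orange) lie mainly at the upper left.

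Genes that followed the cultivar included defence, signalling and metabolic genes. The gamma thionin model Helianthus_annuus_newGene_18250, of a family of small antimicrobial peptides, had 483, 771 and 449 FPKM in 86-1 at 27 DAF, against 0, 0.603 and 15.3 FPKM in L-1-OL-1 at 17 DAF (log2 difference 7.54 ± 0.95, adjusted p = 0.000992). It had 253, 207 and 135 FPKM in 86-1 at 17 DAF and was listed at 0 in L-1-OL-1 at 27 DAF. Phosphoenolpyruvate carboxylase model Helianthus_annuus_newGene_13283, which makes oxaloacetate for the citric acid cycle, had 20.8, 24.2 and 31 FPKM in 86-1 at 27 DAF, against 0, 0 and 0.0266 FPKM in L-1-OL-1 at 17 DAF (log2 difference 4.69 ± 0.27). At 0 throughout L-1-OL-1, at both stages, were the calcium-pump model Helianthus_annuus_newGene_1817, with 21 to 36.7 FPKM in 86-1 at 27 DAF, and the calmodulin-binding gene76826, with 20.2 to 33.3 FPKM there. In 86-1 at 17 DAF these had 27.1 to 31.5 FPKM and 28.6 to 34.4 FPKM. In all, 504 tested genes were listed at 0 in all libraries of L-1-OL-1 at 17 DAF, and they could enter the test only with every 86-1 library at 27 DAF at 1 FPKM or more, so their difference was set by the filter. Of the 503 that were called, 424 were also listed at 0 in all libraries of L-1-OL-1 at 27 DAF, and 348 of these had 1 FPKM or more in every library of 86-1 at 17 DAF.

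Other genes were higher in L-1-OL-1 at both stages. Transketolase gene31479, an enzyme of the pentose phosphate pathway, had 0, 0.0359 and 0.0212 FPKM in 86-1 at 27 DAF, against 42.7, 40.5 and 46.9 FPKM in L-1-OL-1 at 17 DAF (log2 difference -5.44 ± 0.25, adjusted p = 0.000155). The ubiquitin model Helianthus_annuus_newGene_29300 had 0.0296, 0.105 and 0.643 FPKM in 86-1 at 27 DAF, against 118, 226 and 167 FPKM in L-1-OL-1 at 17 DAF (log2 difference -7.07 ± 0.35). Histone demethylase model Helianthus_annuus_newGene_26366, JMJ706-like, was listed at 0 in all libraries of 86-1 at 27 DAF, against 30, 32.4 and 39.3 FPKM in L-1-OL-1 at 17 DAF. Each of these genes entered the first comparison only through its L-1-OL-1 libraries, so its difference there was set by the filter. In the crossed groups gene31479 had 0.0171, 0 and 4.66 FPKM in 86-1 at 17 DAF, against 108, 145 and 158 FPKM in L-1-OL-1 at 27 DAF, and the value of 4.66 belongs to the library that held low levels of L-1-OL-1 genes. The same library had 4.02 FPKM of Helianthus_annuus_newGene_29300 and 4.86 FPKM of Helianthus_annuus_newGene_26366, against at most 0.0369 FPKM and 0.015 FPKM in the other 86-1 libraries at 17 DAF.

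Other large differences turned round, did not pass or were smaller in the crossed groups. Universal stress protein gene75129 had 144, 198 and 262 FPKM in 86-1 at 27 DAF, against 0.473, 4.36 and 6.83 FPKM in L-1-OL-1 at 17 DAF (log2 difference 5.63 ± 0.61, adjusted p = 0.000501). In the second comparison it was lower in 86-1 at 17 DAF, by a log2 difference of -2.51. The heavy metal transport and detoxification gene3392 had 0.58, 0.113 and 0.566 FPKM in 86-1 at 27 DAF, against 56.6, 128 and 78.3 FPKM in L-1-OL-1 at 17 DAF (log2 difference -5.90 ± 0.37, adjusted p = 0.000155), and did not pass in the second comparison (log2 difference -0.13, adjusted p = 0.799). The dormancy and auxin associated gene17628 had 195, 44.3 and 16.7 FPKM in 86-1 at 27 DAF and was listed at 0 in all 6 L-1-OL-1 libraries. In 86-1 at 17 DAF gene17628 had 3.82 to 6.7 FPKM and was also called higher.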

How the data were processed

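RNA from seeds was extracted with the RNAprep pure Plant Kit and sequenced on an Illumina NovaSeq instrument, per the labels' protocols. The authors deposited FPKM per gene for 12 libraries, together with a table of protein database descriptions that holds 65535 lines. Per the submitters' processing notes, the tools included DESeq2 1.4.5, RSEM 1.2.12, HISAT2 2.0.4 and Bowtie2 2.2.5. Their roles, the genome build and the annotation are not given in the sources used. Descriptions covered 25032 of the 25888 tested genes, and 0 gene identifiers matched the reference gene table, so no coordinates or sequences are printed.

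FPKM values are not counts, so limma 3.58.1 in R 4.3.3 was fitted to log2(FPKM + 1), with a mean per group, a mean-variance trend and only the 6 libraries of the comparison, since the spread within L-1-OL-1 at 17 DAF (median SD 0.431 log2 units) was wider than in the other groups (0.207 to 0.323). Tests are 2-sided, with Benjamini-Hochberg adjustment over all tested genes at 0.05. A gene needed 1 FPKM or more in 3 or more of the 6 libraries to be tested. Relative depth came from the smallest steps between low FPKM values, so no counting interval is given. Replicate numbers were not taken as pairs in the main fit.

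The 46 gene lists were defined by words in the descriptions, and 1 of them, endosperm and seed coat, had 0 members. Genes are named by a rule: the 8 highest and 8 lowest differences in the first comparison, and in both, among called genes whose libraries did not overlap between the groups and that had a mean of at least 10 FPKM in the higher group and a description that names a protein, up to 3 calls per list, all tested desaturases, and the 4 most abundant LEA and storage genes. It gave 136 genes, and the text prints some of these. Named outside it, after their values were seen, were gene1412, gene28825, Helianthus_annuus_newGene_4417, gene67185, gene1573 and gene50241. Members, lists and rule were chosen with earlier results of these data known. Alternatives in the fit, scaling, filter, pseudocount, weights and libraries are given in the closing section.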

Additional observations from a re-analysis of the deposited data

How the results depend on the processing

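The count of genes that differed between 86-1 at 27 DAF and L-1-OL-1 at 17 DAF was 3970. It was 882 with a filter at a mean of 5 FPKM, 13457 with limma's library weights, which gave 6.15 and 4.98 to replicate 2 of each group and 0.202 to L-1-OL-1 replicate 1, and 11144 with the LEA level as a covariate; the cause was not tested. Removing 1 library at a time gave 2933 to 6633 calls, the highest without L-1-OL-1 replicate 1. Calls limited to genes at 1 FPKM in libraries of both groups, a choice made after seeing the data, numbered 1362. The other alternatives gave 3831 to 5173. For the second comparison, 18291 calls became 9989 at a mean of 5 FPKM and 16274 to 19404 without 1 library. The 2455 genes called alike in both became 403 at a mean of 5 FPKM, 5491 with library weights and 526 among genes at 1 FPKM in libraries of both groups. They became 2060 to 3307 when 1 library, of the same cultivar and replicate number, was left out of each comparison at once.

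Deviations of same-numbered libraries of the groups correlated at 0.314, -0.0978 and 0.481, and those of different-numbered ones at -0.447 to 0.25. The same-numbered values for replicates 1 and 3 were the highest, while 86-1 replicate 2 correlated best with L-1-OL-1 replicate 1 (0.25). The numbers were not taken as pairs in the main fit, and whether libraries of the same number share a source was not tested. A replicate block gave 4982, 18628 and 2738 for the counts above.

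Of the 119 called genes among those named by the rule, 80 kept their call in each fit without 1 library. No direction of a call reversed under the alternatives run. With 3 libraries a group of unknown read depth, no counting limit can be given for low genes. The LEA covariate was not run for the second comparison.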

Other observations

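Transcription factors showed both directions. Of 93 tested bHLH genes 9 were higher and 2 lower in 86-1 at 27 DAF, against 6.08% higher and 9.26% lower over all genes. The counts were 14 and 8 without L-1-OL-1 replicate 1, and the higher calls numbered 4 without 86-1 replicate 2 and 5 or 6 without any other library. The bHLH gene75979 had 3.55, 3.63 and 5.3 FPKM in 86-1 at 27 DAF, against 28.7, 58.4 and 28.2 FPKM in L-1-OL-1 at 17 DAF (log2 difference -2.87 ± 0.36, adjusted p = 0.001). NAC factors had 4 higher and 10 lower calls among 91 tested, and 24 lower calls without L-1-OL-1 replicate 1. MYB factors had 7 calls each way among 109, but 7 higher and 17 lower without L-1-OL-1 replicate 1 and 4 higher without 86-1 replicate 2. The myb/SANT-like gene3337 followed the cultivar, with 13.5, 15.9 and 20.3 FPKM in 86-1 at 27 DAF, against 0, 0.189 and 0 FPKM in L-1-OL-1 at 17 DAF, and 14.4 to 23.7 FPKM in 86-1 at 17 DAF, against 0.122 to 0.284 FPKM in L-1-OL-1 at 27 DAF. An auxin response factor model Helianthus_annuus_newGene_10150 was listed at 0 in 86-1 at 27 DAF, against 11.5, 15.2 and 14.2 FPKM in L-1-OL-1 at 17 DAF.

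Enzymes of secondary metabolism and redox balance included some of the clearer differences. The cinnamate hydroxylase gene75201, at the entry to phenylpropanoids, had 0.071, 0.42 and 0.135 FPKM in 86-1 at 27 DAF, against 10.1, 32.2 and 49.8 FPKM in L-1-OL-1 at 17 DAF (log2 difference -4.47 ± 0.54, adjusted p = 0.0008). The flavonoid hydroxylase model Helianthus_annuus_newGene_23641 had 2.15, 3.6 and 2.88 FPKM in 86-1 at 27 DAF, against 32.2, 59.9 and 65.7 FPKM in L-1-OL-1 at 17 DAF (log2 difference -3.74 ± 0.35). Higher in 86-1 at 27 DAF were the glutathione transferase gene239, with 44.6, 95.5 and 80.4 FPKM, against 1.24, 4.72 and 6.25 FPKM in L-1-OL-1 at 17 DAF, and hydroxyphenylpyruvate dioxygenase gene7829, which feeds tocopherol synthesis, with 5.42, 4.97 and 9.31 FPKM, against 0.371, 0.646 and 0.79 FPKM. Lipoxygenases, which oxidise polyunsaturated fatty acids, split: gene8063 had 52.7, 61.4 and 77.3 FPKM in 86-1 at 27 DAF, against 12.3, 22.5 and 18.4 FPKM in L-1-OL-1 at 17 DAF, and gene57450 had 0.854, 1 and 4.91 FPKM, against 15.6, 29.2 and 18.2 FPKM. Both lipoxygenases had the opposite sign in the second comparison.

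Water channels and protease inhibitors added to this. Aquaporins had 1 higher and 7 lower calls among 38 tested (6.08% and 9.26% of all genes), and the median log2 difference of -0.31 became 0.04 under quantile normalization. The exception upward, gene28800, had 29.5, 31.1 and 34.2 FPKM in 86-1 at 27 DAF, against 7.07, 1.78 and 5.07 FPKM in L-1-OL-1 at 17 DAF (log2 difference 2.66 ± 0.42). Proteinase inhibitors had 5 higher and 0 lower calls among 38 in 86-1 at 27 DAF, but 7 higher and 9 lower without L-1-OL-1 replicate 1, and 2 or 3 higher without 86-1 replicates 1, 2 or 3 or L-1-OL-1 replicate 2. Phytocystatin gene48931 had 4.17, 28 and 9.07 FPKM in 86-1 at 27 DAF, against 0, 0 and 0.402 FPKM in L-1-OL-1 at 17 DAF (log2 difference 3.36 ± 0.58).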
